A study of Mus musculus with 10 samples.

Results

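The 10 genes described here encode the ligands of transforming growth factor beta (TGF-beta; *Tgfb1*, *Tgfb2* and *Tgfb3*), their receptors (*Tgfbr1*, *Tgfbr2* and *Tgfbr3*) and the latent TGF-beta binding proteins (*Ltbp1*, *Ltbp2*, *Ltbp3* and *Ltbp4*). They were chosen by gene name, and all 10 were found among the 54532 genes measured. The hearts came from *Rit1* M90I/+ mice, a model of RIT1-driven Noonan syndrome, and were compared after long treatment with a MEK inhibitor (MEKi) or with vehicle control, 5 hearts per group. Treatment was 1 mg/kg of trametinib, an allosteric inhibitor of MEK1 and MEK2, given daily from the age of 4 weeks and for 20 weeks. Both groups carried the germline M90I allele, obtained by crossing a conditional allele to a deleter line that expresses Cre from the cytomegalovirus promoter, and no wild-type heart was analysed here. Poly(A) RNA of cardiac tissue was sequenced, and the values are FPKM, that is, fragments scaled to gene length in kilobases and to library size. Levels of different genes can therefore be set side by side.

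TGF-beta is secreted as a latent complex, in which the mature dimer is held by its own propeptide, and the propeptide is usually bonded to a latent TGF-beta binding protein that anchors it in the matrix. Once released by integrins, proteases or thrombospondin, the ligand binds the type II receptor TGFBR2, which recruits and phosphorylates the type I receptor TGFBR1, and the active complex phosphorylates SMAD2 and SMAD3. In the heart the pathway is best known for turning fibroblasts into matrix-producing myofibroblasts, and in this tissue fibroblasts, macrophages, endothelial cells and cardiomyocytes can each express parts of it.

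Each heart had from 13647167 to 18474002 fragments on genes (median, 15215992), and mitochondrial genes took from 24.0 to 35.0% of them. Cardiomyocyte markers were high in every heart, with summed levels from 17737 to 25569 FPKM, and all 8 markers were detected. *Xist*, the transcript of the inactive X chromosome, had at most 2 fragments in any vehicle heart and from 1456 to 2199 in MEKi-treated hearts, whereas the Y-linked *Ddx3y* had from 814 to 901 fragments in vehicle hearts and 0 in MEKi-treated hearts. The other Y-linked genes examined, *Eif2s3y*, *Uty* and *Kdm5d*, divided the hearts in the same way. The labels give no sex, and the study included littermates of both sexes. Treatment and sex, as read from these sex-linked transcripts, therefore cannot be told apart in any comparison below, including those of genes on other chromosomes. Atrial markers summed to 898.2, 422.8 and 740.4 FPKM in vehicle hearts 4 and 5 and MEKi heart 2, and to between 13.7 and 59.0 FPKM in the other 7 hearts. Values are from bulk tissue, in which fewer cells of a type and less RNA per cell cannot be told apart.

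*Ltbp4* had by far the highest level of the 10 genes. Its mean was 8.12 times that of *Ltbp3*, the next gene, and its lowest heart (56.5 FPKM) lay above the highest *Ltbp3* value (11.8 FPKM). Then came *Tgfb1*, *Tgfbr2*, *Tgfb3*, *Tgfbr3*, *Ltbp1*, *Tgfbr1* and *Tgfb2*. Each of these overlapped its neighbours in range, although *Tgfbr3* was above *Ltbp1*, and *Ltbp1* above *Tgfbr1*, in 10 of 10 hearts. *Ltbp3* and *Tgfb1* could not be ordered, since *Ltbp3* was the higher of the pair in 6 of 10 hearts. *Ltbp2* was last, with a mean 5.27 times below that of *Tgfb2* and no overlap in range.

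**Figure D1:**
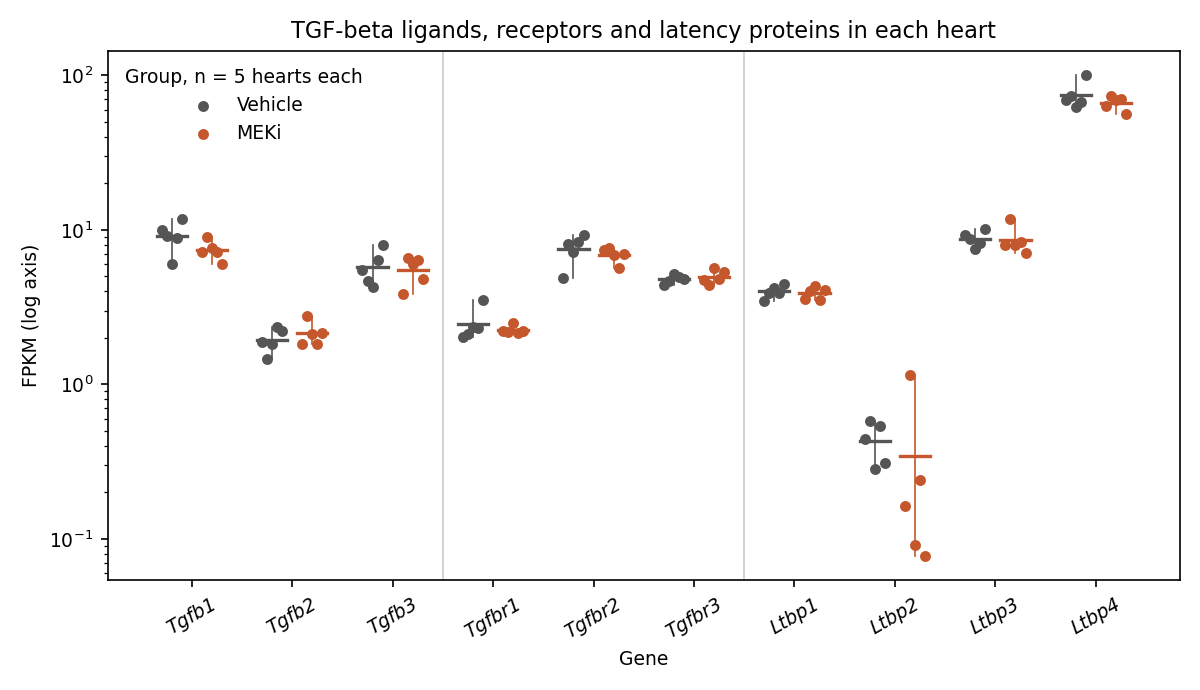
FPKM of the 10 genes in each heart on a log axis, with vehicle and MEKi hearts in separate columns. Points are hearts, horizontal bars are group means and vertical lines run from the lowest to the highest heart. Vehicle and MEKi hearts overlap for every gene, *Ltbp4* lies above all other genes, and *Ltbp2* is lowest and most spread among MEKi hearts.

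*Tgfb1* (chromosome 7, 25687002 to 25705077, plus strand; GRCm38) encodes the ligand most often linked to fibrosis. It was at 9.996, 9.15, 6.05, 8.82 and 11.7 FPKM in vehicle hearts 1 to 5 and at 7.15, 9.05, 7.64, 7.24 and 5.98 FPKM in MEKi hearts 1 to 5. Vehicle heart 3 was among the low values and MEKi heart 2 among the high ones, so the groups overlapped. The means were 9.15 ± 2.06 and 7.41 ± 1.10 FPKM (SD, n = 5 each), and MEKi minus vehicle was -0.28 on the log2 scale (SE 0.17, 95% interval -0.64 to 0.08). This was the largest difference among the 9 genes tested across all genes, and it did not pass (limma adjusted p = 0.729, exact permutation p = 0.159). Macrophage markers, a population in which *Tgfb1* is abundant, summed to between 431.5 and 725.7 FPKM in vehicle hearts and between 340.8 and 424.6 FPKM in MEKi-treated hearts, without overlap. Groups without overlap were found for 1.64% of all genes taken singly, a share that does not apply to a sum of 8 markers. All 8 of these markers had lower means under MEKi, 0 of them past the threshold. Over the 10 hearts, centred within each group, *Tgfb1* and the macrophage sum had r = 0.734 (permutation p = 0.0634, adjusted p = 0.271). For *Tgfb1*, r was 0.869 with fibroblast, 0.866 with endothelial and 0.010 with smooth muscle and pericyte markers. The part of the macrophage markers in the *Tgfb1* difference was not tested.

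*Tgfb2* (chromosome 1, 186622792 to 186705989, minus strand) encodes the ligand that signals poorly without betaglycan. Its values in vehicle hearts 1 to 5 were 1.87, 1.46, 1.83, 2.34 and 2.22 FPKM, and in MEKi hearts 1 to 5 they were 1.83, 2.76, 2.13, 1.82 and 2.14 FPKM. The groups overlapped almost entirely. The means, 1.95 ± 0.349 and 2.14 ± 0.381 FPKM, differed by 0.13 on the log2 scale (SE 0.15), with a limma adjusted p of 0.884.

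*Tgfb3* (chromosome 12, 86056745 to 86079041, minus strand) encodes the third ligand. It was at 5.48, 4.65, 4.28, 6.37 and 8.04 FPKM in vehicle hearts 1 to 5, and at 3.83, 6.597, 5.98, 6.38 and 4.80 FPKM in MEKi hearts 1 to 5. Both the highest and the second lowest heart belonged to the vehicle group. MEKi minus vehicle was -0.05 on the log2 scale (SE 0.19), with a 95% interval from -0.47 to 0.37 and a limma adjusted p of 0.963. The end of *Tgfb3* overlaps an exon of *Ttll5* on the opposite strand, which was at no more than 0.617 FPKM in any heart.

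Among the ligands, *Tgfb1* made up 54.2 ± 4.49% of the summed FPKM in vehicle hearts and 49.3 ± 3.80% in MEKi-treated hearts. *Tgfb3* accounted for 34.0 ± 2.81% and 36.4 ± 4.18%, and *Tgfb2* for 11.8 ± 2.35% and 14.2 ± 1.78%. *Tgfb1* was the largest of these shares in every heart, from 46.3 to 59.9%, and the groups overlapped for all 3 ligands.

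**Figure D2:**
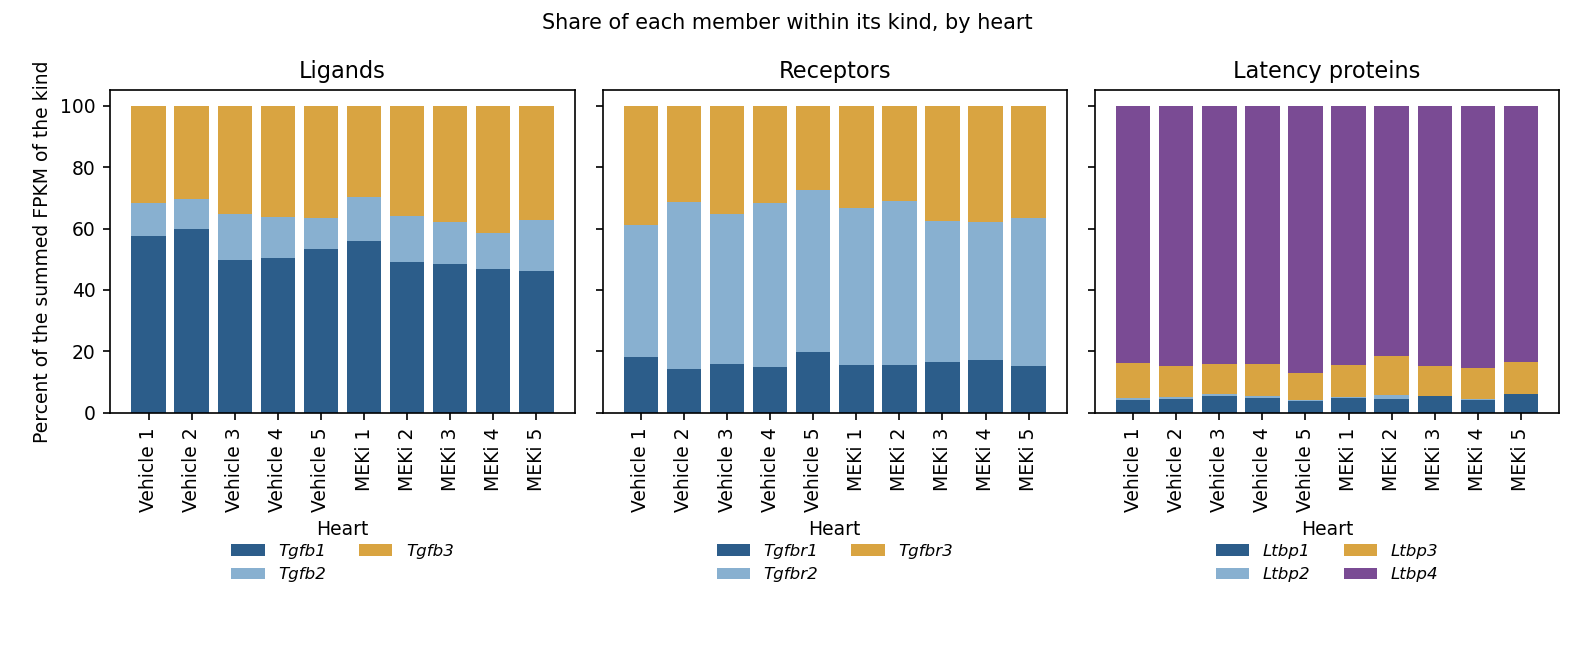
Share of each gene in the summed FPKM of its kind, in percent, for ligands, receptors and latency proteins, with 1 stacked bar per heart and vehicle hearts before MEKi hearts. *Tgfb1* is the largest ligand share, *Tgfbr2* the largest receptor share and *Ltbp4* the largest latency protein share in both groups.

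The 250 bases before the RefSeq start are shown for *Tgfb1* and *Tgfb2*, the ligands with the highest and lowest level, and for *Ltbp3*, whose level moved with that of *Tgfb1*. Of the 10 genes, 8 matched the RefSeq promoter table (GRCm38.p6), all except *Tgfb3* and *Tgfbr3*. Sequences run 5′ to 3′ on the gene's own strand. Capitals mark matches on either strand to the GC box (GGGCGG), the SMAD-binding motif, whose letters were taken as CAGACA,, the element bound by NF-Y (CCAAT) and the TATA box (TATAAA).
Tgfb1, chr7:25686752-25687001, plus strand: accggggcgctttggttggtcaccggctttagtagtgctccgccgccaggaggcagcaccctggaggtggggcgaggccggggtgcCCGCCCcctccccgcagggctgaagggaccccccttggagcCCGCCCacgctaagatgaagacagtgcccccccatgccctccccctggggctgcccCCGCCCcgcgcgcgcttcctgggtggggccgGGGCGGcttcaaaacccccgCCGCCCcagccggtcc
Tgfb2, chr1:186705990-186706239, minus strand: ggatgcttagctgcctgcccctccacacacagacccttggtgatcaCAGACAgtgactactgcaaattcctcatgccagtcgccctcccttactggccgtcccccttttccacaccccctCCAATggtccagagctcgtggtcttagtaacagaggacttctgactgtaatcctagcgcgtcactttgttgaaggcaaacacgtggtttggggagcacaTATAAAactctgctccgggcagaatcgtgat
Ltbp3, chr19:5740650-5740899, plus strand: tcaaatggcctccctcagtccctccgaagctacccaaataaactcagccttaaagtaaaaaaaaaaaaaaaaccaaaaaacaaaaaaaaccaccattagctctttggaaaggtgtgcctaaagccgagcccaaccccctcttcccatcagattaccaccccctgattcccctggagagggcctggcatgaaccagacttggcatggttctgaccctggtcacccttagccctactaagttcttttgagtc

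The *Tgfb1* stretch holds 5 GC boxes and is 75.2% G and C. The *Tgfb2* stretch holds 1 SMAD-binding motif, 1 NF-Y element and 1 TATA box at 53.6% G and C, and it overlaps an exon of the antisense gene *Gm29491*. None of the searched motifs is present in the *Ltbp3* stretch, which is 47.2% G and C. Across the 8 genes with a promoter, each taken at the listed start nearest to the gene's start, 4 hold a GC box (33.0% of 32536 mouse promoters do), 5 an NF-Y element (33.8%), 1 a SMAD-binding motif (17.0%) and 1 a TATA box (12.3%). Over all 12 promoters listed for these genes, 3 genes hold the SMAD-binding motif, since *Ltbp1* and *Tgfbr1* have it before a second start. The AP-1 motif, TGACTCA on either strand, was found in none of the 12 promoters and in 4.45% of all promoters, and the ETS motif, CCGGAAGT on either strand, in none of the 12 and in 2.90% of all. Such matches describe letters in these windows and say nothing of which factor acts there.

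*Tgfbr2* (chromosome 9, 116084293 to 116175360, minus strand) encodes the type II receptor. It was at 4.85, 8.10, 7.20, 8.38 and 9.33 FPKM in vehicle hearts 1 to 5 and at 7.39, 7.64, 6.93, 5.65 and 7.04 FPKM in MEKi hearts 1 to 5. The vehicle group held both the lowest and the highest heart. MEKi minus vehicle was -0.10 on the log2 scale (SE 0.16), with a limma adjusted p of 0.920.

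*Tgfbr1* (chromosome 4, 47353222 to 47414931, plus strand) encodes the type I receptor, the kinase that phosphorylates SMAD2 and SMAD3. Its values were 2.04, 2.11, 2.37, 2.32 and 3.51 FPKM in vehicle hearts 1 to 5 and 2.21, 2.19, 2.49, 2.16 and 2.21 FPKM in MEKi hearts 1 to 5. Apart from vehicle heart 5, all 9 hearts lay between 2.04 and 2.49 FPKM. The log2 difference, -0.10 over all hearts (SE 0.14, adjusted p of 0.906 by limma), was 0.03 without vehicle heart 5.

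*Tgfbr3* (chromosome 5, 107106570 to 107289629, minus strand) encodes betaglycan, the co-receptor that presents TGF-beta2 to the signalling receptors. It was at 4.40, 4.67, 5.21, 4.97 and 4.83 FPKM in vehicle hearts 1 to 5 and at 4.77, 4.40, 5.63, 4.78 and 5.33 FPKM in MEKi hearts 1 to 5. This was the steadiest of the 9 genes tested. The residual SD of *Tgfbr3* stood at the 5.71 percentile of all genes tested, and its 95% interval for the log2 fold change, -0.16 to 0.25, was the narrowest. The estimate was 0.04 (SE 0.09), and the adjusted p by limma was 0.944.

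In every heart *Tgfbr2* exceeded *Tgfbr1*, by 3.10 ± 0.616 times in vehicle hearts and 3.08 ± 0.366 times in MEKi-treated hearts (SD, n = 5 each). *Tgfbr2* held 50.5 ± 4.73% and 48.9 ± 3.66% of the summed receptor FPKM, *Tgfbr3* 32.9 ± 4.40% and 35.2 ± 3.04%, and *Tgfbr1* 16.6 ± 2.35% and 15.9 ± 0.854%. None of these shares separated the groups.

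*Ltbp4* (chromosome 7, 27305136 to 27337692, minus strand) encodes a binding protein of the large latent complex that also takes part in elastic fibre assembly. It was at 69.0, 73.5, 62.9, 67.4 and 100.9 FPKM in vehicle hearts 1 to 5 and at 63.2, 74.0, 69.2, 70.8 and 56.5 FPKM in MEKi hearts 1 to 5, on 5738 to 9495 fragments per heart. Vehicle heart 5 stood alone above the rest. The log2 difference of -0.15 (SE 0.13) had a 95% interval from -0.43 to 0.14 and a limma adjusted p of 0.820. *Ltbp4* supplied 84.8 ± 1.37% of the summed latency protein FPKM in vehicle hearts and 83.8 ± 1.55% in MEKi-treated hearts, and it was at the 95.2 percentile of the levels of all genes tested.

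*Ltbp3* (chromosome 19, 5740904 to 5758532, plus strand) encodes another latent TGF-beta binding protein, one that is secreted together with the ligand. Its values were 9.32, 8.75, 7.51, 8.28 and 10.1 FPKM in vehicle hearts 1 to 5 and 7.96, 11.8, 8.04, 8.40 and 7.05 FPKM in MEKi hearts 1 to 5. MEKi heart 2 was the highest of all 10 and MEKi heart 5 the lowest. The log2 difference of -0.04 (SE 0.14) had a limma adjusted p of 0.963. The deposited length of *Ltbp3*, 5190 bases, is shorter than the 9069 exon bases of the annotation, so its level relative to other genes is less certain than its comparison between groups.

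*Ltbp1* (chromosome 17, 75005568 to 75392512, plus strand) encodes the first described member of the family, which binds fibronectin and fibrillin. It was at 3.49, 3.93, 4.21, 3.93 and 4.49 FPKM in vehicle hearts 1 to 5 and at 3.57, 4.01, 4.35, 3.52 and 4.11 FPKM in MEKi hearts 1 to 5. The groups covered nearly the same range. MEKi minus vehicle came to -0.03 on the log2 scale (SE 0.10), with a 95% interval from -0.25 to 0.19 and a limma adjusted p of 0.959.

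*Ltbp2* (chromosome 12, 84783212 to 84876532, minus strand) encodes the family member that binds fibrillin microfibrils but not latent TGF-beta. It was at 0.443, 0.576, 0.284, 0.535 and 0.311 FPKM in vehicle hearts 1 to 5 and at 0.164, 1.15, 0.0915, 0.239 and 0.0778 FPKM in MEKi hearts 1 to 5, on 10 to 162 fragments per heart. MEKi heart 2 was the highest of all hearts, and the other 4 MEKi hearts were the lowest. With a mean of 0.387 FPKM the gene was under the filter of 0.5 FPKM and was not among the 9 tested with all genes. Over all hearts, the difference in mean log2 value was -0.65 (exact permutation p = 0.238).

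Without MEKi heart 2, the MEKi mean of *Ltbp2* was 0.143 ± 0.0744 FPKM (SD, n = 4), with a highest heart of 0.239 FPKM below the lowest vehicle heart of 0.284 FPKM. The difference was then -1.14, and the exact permutation p of 0.00794 was the smallest that 126 assignments allow. That p was fixed by leaving out the heart, since the other 4 MEKi hearts were already below every vehicle heart. Of the 24630 genes above 0 in any heart, 1.91% had the same 4 MEKi hearts all above or all below the vehicle hearts. This share leaves out the same heart for every gene, whereas for *Ltbp2* the heart was picked by its value. In a fit over the 24630 genes without MEKi heart 2, *Ltbp2* had a limma adjusted p of 0.581. MEKi heart 2 was also 1 of the 3 hearts with high atrial markers, and without all 3 the difference was -1.15 (exact permutation p = 0.0571, where 35 assignments allow no less than 0.0286). Leaving out this heart was chosen after its value was seen, and the part of atrial tissue was not tested.

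None of the 9 genes tested passed the threshold of an adjusted p under 0.05, which 10 of all 12602 genes (0.0794%) passed. With genes of the X, Y and mitochondrial chromosomes left out, 0 of 12178 genes passed, and the 9 genes lie on none of these chromosomes. None of the 9 had an unadjusted p under 0.05, against 7.62% of all genes. Of the 10 genes 0 had groups without overlap, against 1.64% of all genes. The median log2 fold change was -0.05 beside 0.01 over all genes, with 7 estimates below 0 and 2 above, but 6 of the 9 changed sign under at least 1 alternative processing. *Tgfb1* ranked 2014 by p among all genes, ahead of the other 8. Over all alternatives, the lowest adjusted p of any of the 9 was 0.352, for *Tgfb1*. For 8 of the 9 genes the intervals stayed within 0.5 log2 units of 0 on either side, and for *Tgfb1* they reached -0.64. They cover the difference between the groups, in which treatment and the sex-linked transcripts cannot be told apart. An effect of treatment alone is therefore not bounded by them.

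**Figure D3:**
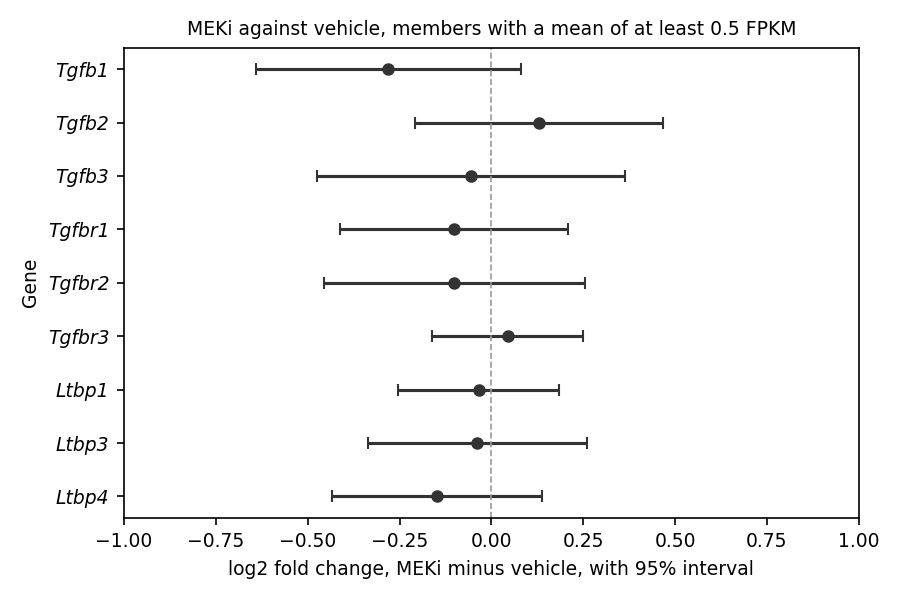
Log2 fold change (MEKi minus vehicle, horizontal axis) of the 9 genes that passed the filter of 0.5 FPKM (vertical axis), as points with 95% intervals from limma. Every interval of the 9 genes spans 0, and *Tgfb1* lies farthest below it at -0.28.

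Single hearts stood out across several genes. Vehicle heart 5 was the highest of all 10 hearts for 6 of the 10 genes (*Tgfb1*, *Tgfb3*, *Tgfbr1*, *Tgfbr2*, *Ltbp1* and *Ltbp4*), while it was highest for 16.0% of all genes tested. MEKi heart 2 was highest for *Tgfb2*, *Ltbp2* and *Ltbp3*, and for 7.56% of all genes tested. MEKi heart 5 was lowest for *Tgfb1*, *Ltbp2*, *Ltbp3* and *Ltbp4*, and for 10.9% of all genes tested. Vehicle heart 1 was lowest for *Tgfbr1*, *Tgfbr2* and *Ltbp1*, and for 14.6% of all genes tested. Vehicle heart 5 also had the highest sums of macrophage (725.7 FPKM), endothelial (377.9 FPKM) and fibroblast (1337 FPKM) markers. Red cell markers summed to 25874 FPKM in vehicle heart 5 and 23639 FPKM in vehicle heart 4, and to between 2899 and 7386 FPKM in the other 8 hearts. The part of these cells in the values of the 10 genes was not tested.

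To ask which of these genes moved together from heart to heart, log2 values were centred within each group, so that treatment played no part, and 85 relations were computed over the 10 hearts, 45 between pairs of the genes and 40 between a gene and the summed markers of a cell type. Of the pairs, 36 of 45 had a positive Pearson r, with a median of 0.339. Only 2 of the 85 relations passed an adjusted p under 0.05, and 16 had an unadjusted permutation p under 0.05.

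*Tgfb1* and *Ltbp3*, a ligand and a protein that anchors it, moved together (r = 0.830, permutation p = 0.000347, adjusted p = 0.0148). By ranks the relation held (rho = 0.95, permutation p = 0.00125, adjusted p = 0.0354). Within vehicle hearts r was 0.964 and within MEKi-treated hearts 0.927, and without vehicle heart 5 and MEKi heart 5 it was 0.750. *Ltbp3* and *Ltbp4* passed by ranks alone (rho = 0.95, permutation p = 0.00125, adjusted p = 0.0354), with r = 0.708 (permutation p = 0.0113, adjusted p = 0.1203). *Tgfb1* and *Ltbp4* had r = 0.815 (permutation p = 0.0222, adjusted p = 0.157). The summed fibroblast markers had r = 0.869 with *Tgfb1* and 0.811 with *Ltbp3*. Whether *Tgfb1* and *Ltbp3* moved together apart from a shared tissue makeup was not tested.

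*Tgfb3* followed the summed fibroblast markers, with r = 0.939 (permutation p = 6.944e-05, the smallest that 14400 permutations can give, adjusted p = 0.00590) and rho = 1.00 (permutation p = 0.000139, adjusted p = 0.0118). Without vehicle hearts 3 and 5, r was 0.896. The sum is 58.9% *Gsn* and 26.9% *Mgp*, which other cells of the heart also express. With each of the 8 markers given equal weight, a change made after the data were seen, r was 0.837 and the adjusted p 0.192. Among the single markers r was 0.858 for *Gsn*, 0.854 for *Mgp* and 0.841 for *Dpt*, but 0.303 for *Tcf21*, 0.0512 for *Pdgfra* and -0.362 for *Col15a1*. Of these, *Pdgfra* and *Tcf21* are the markers most often used to define fibroblasts of the heart. Against the same fibroblast sum, r was 0.874 for *Ltbp4* (permutation p = 0.00271, adjusted p = 0.0753). It was 0.811 for *Ltbp3* (permutation p = 0.00354, adjusted p = 0.0753) and 0.869 for *Tgfb1* (permutation p = 0.00694, adjusted p = 0.110). None of them passed the adjustment, and without vehicle hearts 3 and 5 r was 0.766, 0.796 and 0.752 in that order.

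*Tgfbr3*, betaglycan, had the most negative values of the pairs, with r = -0.761 against *Ltbp2* (permutation p = 0.0199, adjusted p = 0.156; rho = -0.65, permutation p = 0.0761, adjusted p = 0.308) and r = -0.726 against *Ltbp3* (permutation p = 0.0319, adjusted p = 0.208; rho = -0.60, permutation p = 0.109, adjusted p = 0.343), and neither passed the adjustment. *Ltbp4* and the macrophage markers had r = 0.904 (permutation p = 0.00778, adjusted p = 0.110; rho = 0.75, permutation p = 0.0336, adjusted p = 0.190), which was 0.554 without vehicle heart 5 and MEKi heart 5. *Tgfb1* and the endothelial markers had r = 0.866 (permutation p = 0.00910, adjusted p = 0.110; rho = 0.65, permutation p = 0.0761, adjusted p = 0.308), which was 0.364 without vehicle heart 3 and MEKi heart 5.

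**Figure D4:**
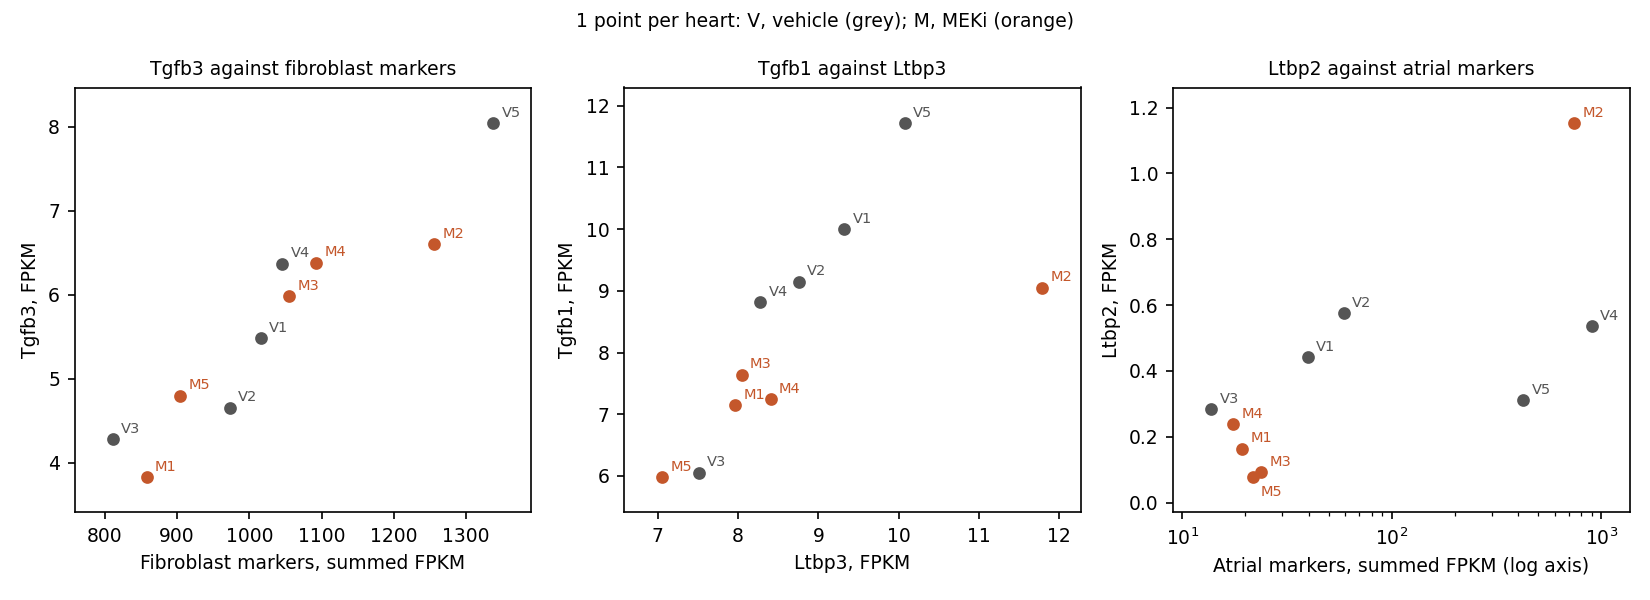
FPKM, as measured and not centred, of *Tgfb3* against the summed fibroblast markers (left), *Tgfb1* against *Ltbp3* (middle) and *Ltbp2* against the summed atrial markers (right, log horizontal axis), with 1 point per heart. Vehicle hearts are grey and MEKi hearts orange. In the left and middle panels the hearts of both groups rise together, and in the right panel MEKi heart 2 stands apart at 1.15 FPKM of *Ltbp2* and 740.4 FPKM of atrial markers.

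**Figure D5:**
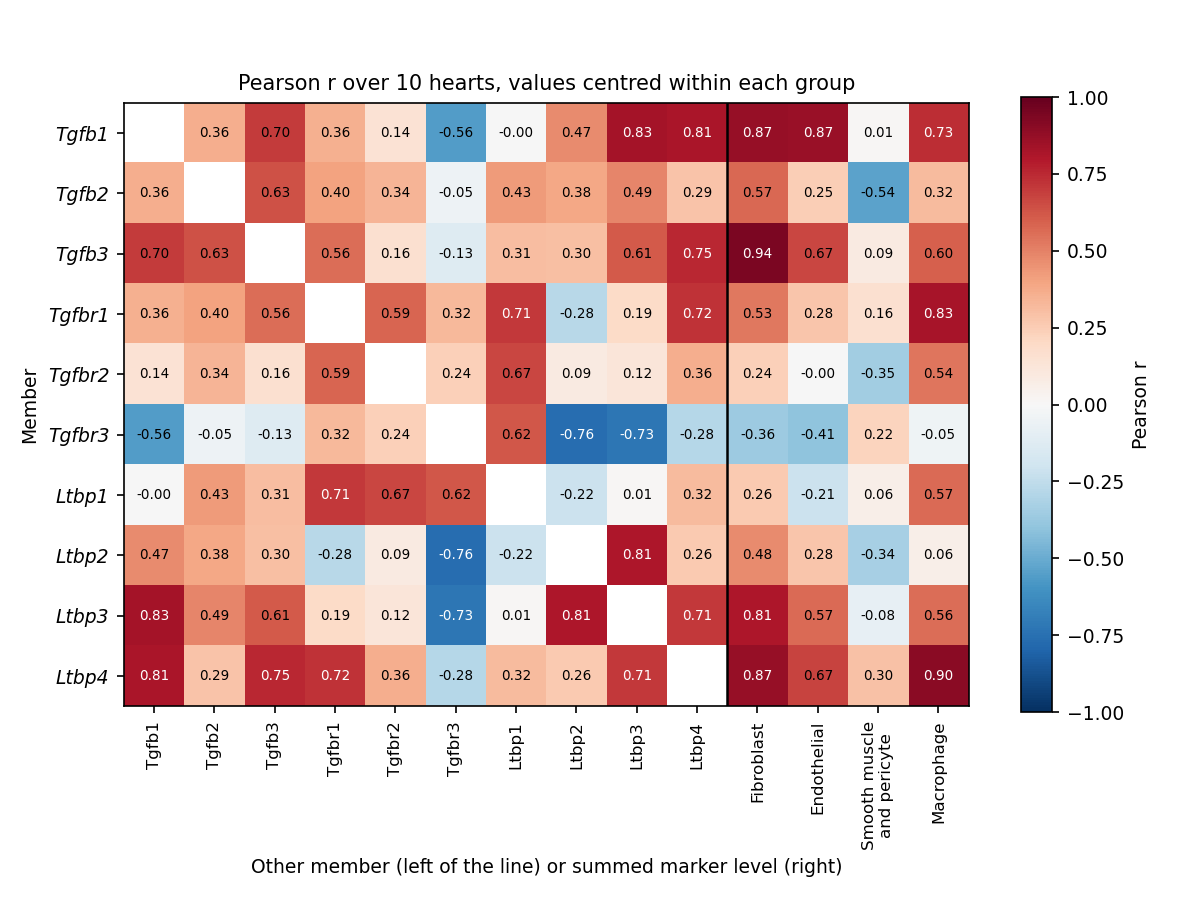
Pearson r over the 10 hearts, centred within groups, between each of the 10 genes and the other 9 (left of the line) and the summed markers of 4 cell types (right). Red is positive and blue negative. *Tgfbr3* is the gene with the most negative values, and the fibroblast column is positive for 9 of 10 genes.

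As a description with no test, the gene most like each of the 10 was sought among the other members and the pathway genes past the filter (91 candidates, and 92 for *Ltbp2*), by r over the 10 hearts centred within groups. For *Tgfb1* it was *Fbln1* (r = 0.901), for *Tgfb2* *Thbs1* (0.856) and for *Tgfb3* *Tgfbi* (0.852). Among receptors it was *Tgif1* for *Tgfbr1* (r = 0.882), *Smad2* for *Tgfbr2* (0.904) and *Smad5* for *Tgfbr3* (0.842). For the latency proteins it was *Dcn* for *Ltbp1* (r = 0.763), *Pmepa1* for both *Ltbp2* (0.886) and *Ltbp3* (0.869), and *Adamtsl2* for *Ltbp4* (0.900). Each is the highest of many values and shares libraries and depth with the gene it is set beside.

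The rest of the pathway was read from 8 gene lists. Of their 112 genes, 83 passed the filter. None passed the threshold, 27 had higher and 56 lower means under MEKi, and the median log2 fold change was -0.06 beside 0.01 over all genes, of which 47.9% were lower. An unadjusted p under 0.05 was found for 7 of the 83 (8.43%), all lower, against 7.62% of all genes. Among them were *Bmper*, *Efemp1*, *Fbn1*, *Chrd*, *Inhba* and *Col1a1*, of which *Fbn1*, *Chrd* and *Col1a1* were named after their values were seen.

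Of the transcripts induced by TGF-beta, 11 of 15 were tested, and 9 had lower and 2 higher means under MEKi (median -0.27). *Acta2*, the actin of smooth muscle and myofibroblasts, was among the 2 with higher means, at 42.8 ± 13.3 and 55.7 ± 15.9 FPKM (log2 difference 0.39, limma adjusted p = 0.757). Its mean over all 10 hearts, 49.2 FPKM, was the highest of this list.

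Among the matrix partners of the latency proteins, 13 of 14 were tested, with 4 higher and 9 lower (median -0.09). *Efemp1*, a fibulin, was at 9.11 ± 2.63 and 4.96 ± 1.99 FPKM (log2 difference -0.90, SE 0.27, adjusted p of 0.445 by limma), and *Fbln5*, a fibulin of elastic fibres, differed by 0.24 (limma adjusted p = 0.771). *Fbln1* had the highest level of this list, 23.2 ± 3.73 and 24.3 ± 4.47 FPKM (limma adjusted p = 0.948). The genes that activate the latent complex were split 5 higher and 9 lower among the 14 tested (median -0.08), with *Thbs1*, the thrombospondin that can release TGF-beta, at 2.11 ± 1.03 and 1.27 ± 0.981 FPKM (limma adjusted p = 0.673) and the integrin subunit *Itgav* at a log2 difference of 0.15 (limma adjusted p = 0.820). The integrin subunit *Itgb1* had the highest level there, 70.9 ± 9.83 and 74.6 ± 4.73 FPKM (limma adjusted p = 0.895).

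The co-receptors and decoys had 1 higher and 6 lower of 7 tested (median -0.21), led by *Eng*, endoglin, at 81.6 ± 30.8 and 59.1 ± 4.54 FPKM (log2 difference -0.40, limma adjusted p = 0.652). The decoy receptor *Bambi* differed by 0.01 (limma adjusted p = 0.994), and the proteoglycan *Dcn*, which binds TGF-beta, had the highest level, 112.9 ± 22.0 and 110.3 ± 18.9 FPKM (limma adjusted p = 0.971). SMADs and their regulators had 5 higher and 11 lower of 16 tested (median -0.04), with *Skil*, a repressor of SMAD activity, at a log2 difference of -0.27 (limma adjusted p = 0.715), *Smad1* at 0.08 (0.919) and the related repressor *Ski*, highest in level, at 11.7 ± 2.34 and 11.7 ± 0.383 FPKM (limma adjusted p = 0.973). The neighbouring BMP and activin ligands were 5 higher and 5 lower of 10 tested, where *Inhba*, which encodes the activin A subunit, was at 0.714 ± 0.203 and 0.379 ± 0.204 FPKM (log2 difference -0.81, limma adjusted p = 0.559) and *Gdf11* differed by 0.44 (0.702). *Bmp6* had the highest level of the ligands, 12.5 ± 5.32 and 11.5 ± 1.66 FPKM (limma adjusted p = 0.9749).

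Receptors of these ligands were 3 higher and 2 lower of 5 tested, where *Acvr1* differed by -0.11 (limma adjusted p = 0.914), *Acvr1b* by 0.06 (0.932), and *Bmpr1a*, highest in level, stood at 8.69 ± 1.80 and 8.56 ± 0.672 FPKM. The extracellular antagonists of BMP and activin were 2 higher and 5 lower of 7 tested. *Bmper*, a secreted modulator of BMP, was at 1.31 ± 0.294 and 0.759 ± 0.208 FPKM (log2 difference -0.72, limma adjusted p = 0.410). *Fstl3* differed by 0.27 (limma adjusted p = 0.820), and *Fstl1* had the highest level, 27.0 ± 6.03 and 24.7 ± 3.10 FPKM (limma adjusted p = 0.913).

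Markers of cell types that can express these genes were read in the same fit. Fibroblast markers summed to between 811.2 and 1337 FPKM in vehicle hearts and between 858.2 and 1256 FPKM in MEKi-treated hearts, with 5 of 8 markers higher and 3 lower. Smooth muscle and pericyte markers were lower for 8 of 8 (median -0.25), with sums from 141.5 to 180.4 and from 125.9 to 165.8 FPKM, and endothelial markers for 7 of 8. Epicardial and mesothelial markers were lower for 6 of 6. Of all these markers 0 passed the threshold, and their part in the values above was not tested.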

How the data were processed

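Poly(A) RNA of 10 hearts was sequenced, and the authors deposited 1 table of FPKM for 54532 genes with 1 column per heart. The submitters' processing notes name fastp, STAR 2.5, HTSeq 0.6.1 and the mm10 build; strand settings and the annotation release are not given in the sources used here. Coordinates matched GENCODE M21 for 98.3% of 54409 genes. In every heart, 100% of the FPKM times gene length were whole multiples of 1 step (tolerance 0.001), so fragments could be recovered for depth. The 95% intervals are limma's and rest on the spread between hearts. Each column could be matched to 1 heart by its label.

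The main test was limma 3.58.1 (R 4.3.3; mean-variance trend, two-sided, Benjamini-Hochberg) on log2(FPKM + 0.1), run on 12602 genes whose mean over the hearts reached 0.5 FPKM. On this scale the change of low genes is understated. For single members, an exact permutation test (two-sided) went through 252 assignments. Relations used permutation of hearts within groups, with numpy 2.4.6, scipy 1.17.1 and pandas 2.3.3 under Python 3.11.15. The fit was tested on simulated data.

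The members and lists were chosen with earlier results of these data known. Genes named are the members, the gene of each list with the smallest p in each direction or the highest level, and the gene most like each member. One gene that this rule names is not reported here. The labels do not give litters, so whether the hearts are independent is not known. P-values of the group comparison set each difference against the spread between these hearts. Alternatives were other pseudocounts, filters and scales, voom on recovered fragments, a replicate block, leaving out hearts and dropping genes of the sex chromosomes and mitochondria. The settings for Ltbp2 over all genes above 0 and the equal-weight fibroblast score were added after seeing the data.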

Additional observations from a re-analysis of the deposited data

Results flagged for a closer look

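A heart stood far from the other 4 of its group, by Dixon's ratio, in 11 of the 40 groups of values examined. Chance would give about 2 (1 in 20) if the values were independent. They come from the same 10 hearts, and 1 heart can stand apart in several of them, so the excess over 2 was not measured. For *Tgfbr1* the hearts set apart were vehicle heart 5 at 3.51 FPKM (the others, 2.04 to 2.37) and MEKi heart 3 at 2.49 FPKM (2.16 to 2.21). *Ltbp4* in vehicle heart 5 was at 100.9 FPKM, with the others from 62.9 to 73.5. *Ltbp2* and *Ltbp3* were set apart in MEKi heart 2, at 1.15 FPKM (the others, 0.0778 to 0.239) and 11.8 FPKM (7.05 to 8.403).

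Among marker sums, MEKi heart 2 stood apart for atrial markers at 740.4 FPKM (17.5 to 23.8) and adipocyte markers at 102.0 FPKM (6.27 to 16.1). Vehicle heart 5 stood apart for macrophage markers at 725.7 FPKM (431.5 to 513.1), vehicle heart 4 for smooth muscle and pericyte markers at 141.5 FPKM (173.7 to 180.4), vehicle heart 1 for cardiomyocyte markers at 25570 FPKM (18694 to 20481), and MEKi heart 5 for endothelial markers at 217.2 FPKM (284.6 to 306.8). The same hearts, MEKi heart 2 and vehicle heart 5, were highest for 3 and 6 of the 10 genes. Whether tissue makeup accounts for their levels was not tested.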

How the results depend on the processing

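The count of genes with an adjusted p under 0.05 was 10 over all genes, 0 when genes of the X, Y and mitochondrial chromosomes were dropped (924 had an unadjusted p under 0.05 by limma), 2 with a mean of at least 5 FPKM, and 5 without the 3 hearts with the highest atrial transcripts. Leaving out 1 heart gave 5 (without vehicle heart 2) to 13. With the replicate number as a block it was 4. Same-numbered hearts correlated at r from -0.15 to -0.02, so they did not deviate together. The labels do not say whether the numbers pair the hearts. Among the members, 0 passed the threshold under every alternative run, including the block, but the 5 FPKM filter left only 5 of them to test (*Tgfb1*, *Tgfb3*, *Tgfbr2*, *Ltbp3* and *Ltbp4*). On a TPM scale, which moved the median of all genes to 0.0881, *Ltbp1* was at 0.0425, *Ltbp3* at 0.0399 and *Tgfb3* at 0.0228. Without the 3 hearts with high atrial transcripts, *Ltbp1* was at 0.0031, *Tgfb3* at 0.1041, *Tgfbr1* at 0.0599 and *Tgfbr2* at 0.0326. Leaving out 1 heart moved *Ltbp1* from -0.0824 to 0.0065, *Ltbp3* from -0.154 to 0.0293, *Tgfb3* from -0.1505 to 0.0730, *Tgfbr1* from -0.1613 to 0.0280 and *Tgfbr3* from -0.0004 to 0.0867. In the same way *Tgfb1* ran from -0.419 (without vehicle heart 3) to -0.1836 (vehicle heart 5), *Tgfb2* from 0.0372 (vehicle heart 2; 0.0378 without MEKi heart 2) to 0.1989 (vehicle heart 4), *Ltbp4* from -0.206 (vehicle heart 3) to -0.0354 (vehicle heart 5) and *Tgfbr2* from -0.2503 (vehicle heart 1) to -0.0176 (vehicle heart 5). The sign of *Tgfb1*, *Tgfb2* and *Ltbp4* did not change in any alternative run for them. The causes of these shifts were not tested. With 10 to 162 fragments per heart, depth limits *Ltbp2* more than the other genes.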
